A study of Mus musculus with 6 samples.

Results

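The 10 genes described here, Gap43, Gng8, Stmn1, Stmn2, Stmn4, Dpysl3, Dpysl5, Crmp1, Tubb3 and Marcksl1, code for proteins of the cytoskeleton and of axon growth in young neurons, and they were taken by symbol from the 53686 genes of a read count table. All 10 were found and all 10 passed the filter on low counts, as did 19267 genes in all. The table holds 6 RNA-seq libraries of dissected mouse main olfactory epithelium, where olfactory sensory neurons, their progenitors and supporting cells lie. Of these, 3 libraries came from C57BL/6J mice hemizygous for 5x21-OR1A1, a transgene for the human odorant receptor OR1A1 behind a multimerised enhancer element, and 3 from wild-type C57BL/6J mice. The series asks how olfactory neurons choose a receptor when a receptor transgene is highly represented, and the comparison it implies here is between genotypes. The age of the mice, the number of transgenic lines and whether a library was 1 animal are not stated in the labels used here, so p-values here reflect only how much these libraries vary. Transgenic libraries 1, 2 and 3 held 35423577, 29725688 and 27506217 counts, and wild-type libraries 1, 2 and 3 held 30908191, 35804712 and 30177731.

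Olfactory sensory neurons are made throughout life from basal progenitors. A new neuron first passes through an immature stage in which it grows an axon to the olfactory bulb, expressing Gap43, a growth cone membrane protein, and Gng8, a G protein gamma subunit. It then matures, expressing Omp, the olfactory marker protein, and Gng13, the gamma subunit of the odorant signalling pathway. Stathmins bind tubulin dimers and destabilise microtubules, collapsin response mediator proteins (CRMPs) link guidance cues to the growth cone cytoskeleton, and Tubb3 is the beta-tubulin isotype typical of neurons.

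In transgenic epithelium 4 of the 10 genes rose (Gap43, Dpysl3, Stmn1 and Stmn2) and 1 fell (Stmn4). The other 5 did not pass the test. Across all tested genes 2.71% passed, 0.519% as higher and 2.2% as lower, by edgeR's quasi-likelihood test with Benjamini-Hochberg adjustment at 0.05. The median log2 fold change of the 10 genes was 0.44, beside 0.02 over all tested genes. In 7 of the 10 every transgenic library lay above every wild-type library, as in 11.4% of all tested genes, and Stmn4 lay wholly below, as in 12.5%. Leaving out transgenic library 1, 2 or 3 left 1, 1 and 2 of the 10 genes past the threshold (0.79%, 0.886% and 0.763% of all genes), and leaving out wild-type library 1, 2 or 3 left 4 each time (3.19%, 1.59% and 2.26%). In bulk tissue fewer cells of a type and less RNA per cell cannot be told apart, and this holds for every level given here.

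**Figure D1:**
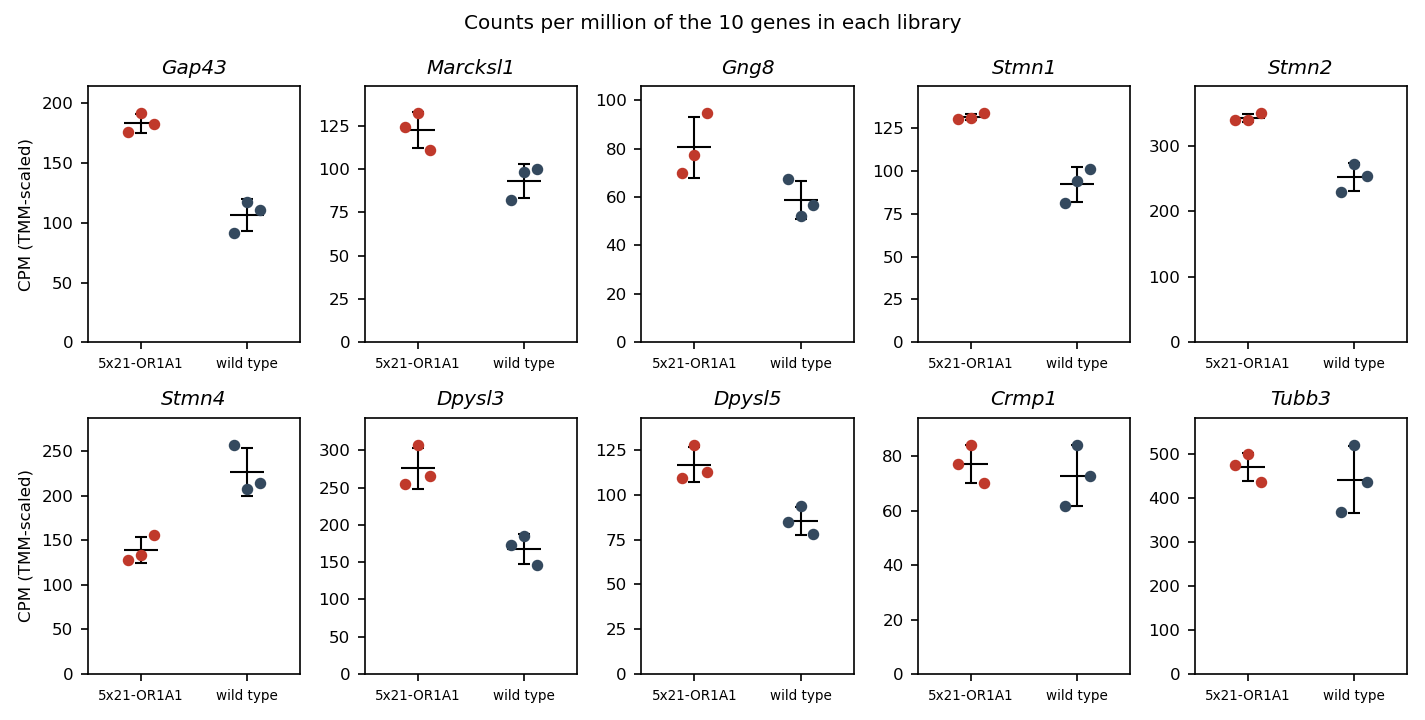
Counts per 1000000 counts (CPM, scaled by TMM) of each of the 10 genes in the 3 hemizygous 5x21-OR1A1 libraries (red) and the 3 wild-type libraries (blue), with the mean and SD as bars. The 2 groups do not overlap in 8 of the panels, with Stmn4 alone lower in transgenic libraries, and they overlap for Crmp1 and Tubb3.

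The stathmins hold genes that changed in opposite directions, and their coding sequences show how alike those genes are. Stmn2 and Stmn4 are shown first, since 1 rose and the other fell. Their coding sequences, of 540 and 570 bases, were 71.7% identical over aligned bases. The lines give their most alike stretch of 100 coding bases without a gap, coding bases 319 to 418 of Stmn2 and 349 to 448 of Stmn4, in which 81 bases were the same and capitals mark the 19 that differ.
Stmn2: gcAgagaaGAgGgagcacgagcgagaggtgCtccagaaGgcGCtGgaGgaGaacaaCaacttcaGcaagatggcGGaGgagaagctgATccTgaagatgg
Stmn4: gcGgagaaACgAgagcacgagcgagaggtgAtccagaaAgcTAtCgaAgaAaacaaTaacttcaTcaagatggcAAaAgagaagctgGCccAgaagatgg
No 100-base window of the transcripts of either gene, the length of the reads, was found in the other or in any other gene's transcripts. Stmn1 differs from them in this, because the processed pseudogene Gm11223 (chr4:69925630-69926079, minus strand, GRCm38) copies its whole coding sequence. It was identical to Stmn1 at 449 of 450 bases, and the difference was A274G, counted from the first coding base with the Stmn1 base first. The lines give coding bases 224 to 323 of both, with capitals on the base that differs.
Stmn1: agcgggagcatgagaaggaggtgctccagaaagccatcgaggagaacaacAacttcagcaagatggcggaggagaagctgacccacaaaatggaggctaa
Gm11223: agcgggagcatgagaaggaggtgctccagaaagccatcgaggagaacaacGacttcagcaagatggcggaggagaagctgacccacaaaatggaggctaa
Of the 1956 windows of 100 bases in Stmn1 transcripts, 251 (12.8%) occur letter for letter in Gm11223, so the division of reads between them is uncertain. The other 9 genes share no such window with any other gene.

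Gap43, the growth cone protein, was measured at chr16:42248442-42340651 on the minus strand. It had 176, 191 and 183 CPM (counts per 1000000 counts of the library, scaled by the TMM method) in transgenic libraries 1, 2 and 3, against 91.7, 117 and 111 CPM in wild-type libraries 1, 2 and 3. All transgenic libraries were higher than all wild-type ones. The means were 183 ± 7.83 CPM in transgenic and 107 ± 13.2 CPM in wild-type libraries (SD, n = 3 each), a log2 fold change of 0.78 (SE 0.102, adjusted p = 0.00845 by edgeR's quasi-likelihood test). It was the 1 gene of the 10 that kept its call in all 18 repeats of the test with another scaling, tool, filter, covariate, threshold or set of libraries. Leaving out any 1 library gave log2 fold changes of 0.68 to 0.86 and adjusted p-values of 0.0122 to 0.0494.

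Marcksl1 belongs to the same loose group of membrane-bound, calmodulin-binding growth proteins as Gap43. At chr4:129513581-129515985 on the plus strand, it had 124, 132 and 111 CPM in the transgenic libraries, against 82.1, 98.3 and 99.8 CPM in the wild-type ones. The groups did not overlap, but the log2 fold change of 0.39 (SE 0.102) did not pass (adjusted p = 0.103, edgeR). Of the relatives outside the 10, Basp1, another growth cone membrane protein, rose to 45.3 ± 2.76 CPM in transgenic libraries, against 31.0 ± 2.11 CPM in wild-type libraries (log2 0.55, SE 0.0846, adjusted p = 0.0172, edgeR). That call was lost without transgenic library 1, 2 or 3 (adjusted p of 0.0896, 0.0893 and 0.0605). Marcks, the founding member, had 176 ± 3.93 CPM in transgenic and 138 ± 7.12 CPM in wild-type libraries and did not pass (log2 0.35, adjusted p = 0.0503, edgeR). Per kilobase of exon, Gap43 made up 47.6 ± 1.20% of the 4 genes' counts in transgenic and 41.0 ± 1.72% in wild-type libraries, without overlap.

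Gng8, the gamma subunit known from immature olfactory and vomeronasal neurons, was measured at chr7:16891786-16895436 on the plus strand. It had 69.8, 77.2 and 94.5 CPM in the transgenic libraries and 67.6, 52.3 and 56.7 CPM in the wild-type ones. Transgenic library 1 lay just above wild-type library 1, and the groups did not overlap. Its log2 fold change of 0.45 (SE 0.135) did not pass (adjusted p = 0.146, edgeR). Gng13 was the gamma subunit that fell, with 263 ± 10.9 CPM in transgenic and 461 ± 88.9 CPM in wild-type libraries (log2 -0.81, SE 0.145, adjusted p = 0.0292, edgeR). The Gng13 call was lost without transgenic library 1, 2 or 3 (adjusted p of 0.140, 0.107 and 0.124) and without wild-type library 2 or 3 (0.0819 and 0.0668). Gng13 shares 399 of its 773 exon bases with Chtf18 on the opposite strand, which counted 134 to 240 reads per library against at least 7264 for Gng13.

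Ratios of 2 genes within a library do not depend on how libraries are scaled. The Gng8 count per Gng13 count was 0.279, 0.285 and 0.353 in transgenic libraries 1, 2 and 3, and 0.188, 0.106 and 0.107 in wild-type libraries 1, 2 and 3. The Gap43 count per Omp count was 0.0262, 0.0273 and 0.0275 in transgenic libraries, against 0.00946, 0.00935 and 0.00898 in wild-type libraries. Neither ratio overlapped between groups, and the Gap43 ratio varied little within a group. The difference in log2 ratio was 1.24 for Gng8 to Gng13 and 1.54 for Gap43 to Omp. Each gave an exact permutation p of 0.1 (two-sided), the lowest value possible with 3 libraries against 3. Since Gap43 and Gng8 alone lay wholly above, and Omp and Gng13 wholly below, these ratios could not overlap. Omp itself fell to 6787 ± 190.5 CPM in transgenic libraries, against 11518 ± 1581 CPM in wild-type libraries (log2 -0.76, SE 0.138, adjusted p = 0.0305, edgeR), so both sides of the ratio moved. The Omp call was lost without any 1 library except wild-type library 1 (adjusted p of 0.0534 to 0.151), while the Gap43 to Omp difference stayed at 1.52 to 1.56 whichever library was left out.

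**Figure D2:**
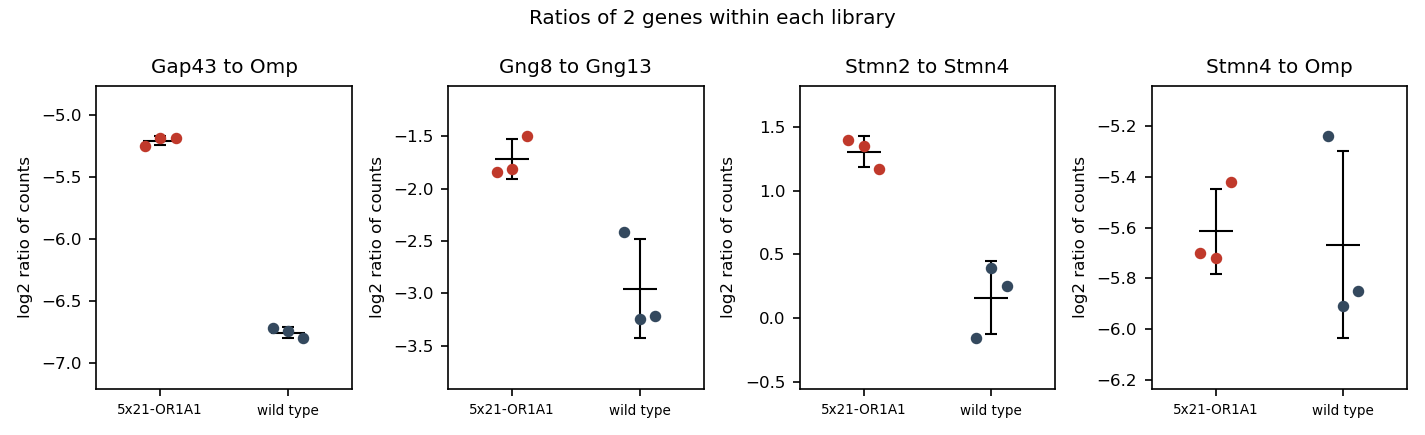
The log2 ratio of the counts of 2 genes within each library, for the 3 hemizygous 5x21-OR1A1 libraries (red) and the 3 wild-type libraries (blue), with the mean and SD as bars. Gap43 to Omp, Gng8 to Gng13 and Stmn2 to Stmn4 are higher in every transgenic library, by 1.54, 1.24 and 1.15, and Stmn4 to Omp overlaps between groups.

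Among the stathmins, Stmn1 (chr4:134468320-134473843, plus strand), the widely expressed founding member, had 130.0, 131 and 133 CPM in the transgenic libraries and 81.0, 94.2 and 101 CPM in the wild-type ones. The transgenic libraries lay close together and above all wild-type libraries. Stmn1 rose (log2 0.51, SE 0.0915, adjusted p = 0.0287, edgeR), and the call was lost without transgenic library 1, 2 or 3 (adjusted p of 0.127, 0.113 and 0.129) or wild-type library 2 (0.0686). More reads were counted for Gm11223 than for Stmn1 itself, with 218 ± 4.01 CPM in transgenic and 149.5 ± 15.03 CPM in wild-type libraries (log2 0.55, SE 0.0904, adjusted p = 0.0215, edgeR). The Gm11223 call was lost without the same 4 libraries (adjusted p of 0.0535 to 0.108). With the counts of both added, the sum was 350 ± 3.49 CPM in transgenic and 242 ± 25.2 CPM in wild-type libraries (log2 0.53, SE 0.0983, adjusted p = 0.0325, edgeR), close to the change of Stmn1 alone.

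Stmn2 (chr3:8509360-8561606, plus strand), the neuronal stathmin known from growth cones, had 339, 339 and 350 CPM in the transgenic libraries and 230, 272 and 254 CPM in the wild-type ones. The groups did not overlap. Stmn2 rose (log2 0.44, SE 0.0909, adjusted p = 0.0479, edgeR), but close to the threshold, and the call was lost without any 1 of the 6 libraries (adjusted p of 0.055 to 0.195).

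Stmn4 (chr14:66344296-66361680, plus strand), a stathmin of the nervous system, went the other way. It had 129, 133 and 156 CPM in the transgenic libraries and 257, 208 and 214 CPM in the wild-type ones. Every transgenic library was lower than every wild-type library, the only gene of the 10 with that order. Its mean was 139 ± 14.5 CPM in transgenic and 226 ± 26.97 CPM in wild-type libraries, a log2 fold change of -0.70 (SE 0.114, adjusted p = 0.0198, edgeR). The call was lost without transgenic library 1 or 2 (adjusted p of 0.108 and 0.0956). It was also lost with counts scaled to mature neuron markers, where the log2 fold change was -0.01 (adjusted p = 0.944, edgeR). That scaling moved the median of all genes from 0.02 to 0.72, so a gene at -0.70 lands near 0 by construction. The Stmn4 count per Omp count, chosen after the values were seen, was 0.0192, 0.0190 and 0.0234 in transgenic libraries 1, 2 and 3. In wild-type libraries 1, 2 and 3 it was 0.0265, 0.0166 and 0.0173, so the groups overlapped. The log2 difference was 0.05 (two-sided exact permutation p = 0.8), with an SD of 0.169 in transgenic and 0.374 in wild-type libraries. Within each genotype Stmn4 was highest in the library where Omp was lowest, transgenic library 3 and wild-type library 1.

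Stmn3, the remaining stathmin and no member of the 10, had 274 ± 7.76 CPM in transgenic and 292 ± 30.4 CPM in wild-type libraries and did not pass (log2 -0.09, adjusted p = 0.687, edgeR). The Stmn2 count per Stmn4 count, chosen after the values were seen, was 2.64, 2.55 and 2.25 in transgenic libraries 1, 2 and 3, against 0.895, 1.31 and 1.19 in wild-type libraries 1, 2 and 3. The log2 difference was 1.15. Since each gene alone separated the groups, in opposite directions, this ratio could not overlap, and it is given as a description. Per kilobase of exon, Stmn4 made up 15.6 ± 1.43% of the 4 stathmins' counts in transgenic and 25.4 ± 3.99% in wild-type libraries, and Stmn2 28.0 ± 0.154% in transgenic and 20.5 ± 1.45% in wild-type libraries. These shares leave out Gm11223. With its counts added to Stmn1, Stmn4 made up 12.4% in transgenic and 21.6% in wild-type libraries, and Stmn2 22.3% in transgenic and 17.4% in wild-type libraries. The Stmn3 share overlapped between groups without the Gm11223 counts and lay wholly lower in transgenic libraries with them.

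**Figure D3:**
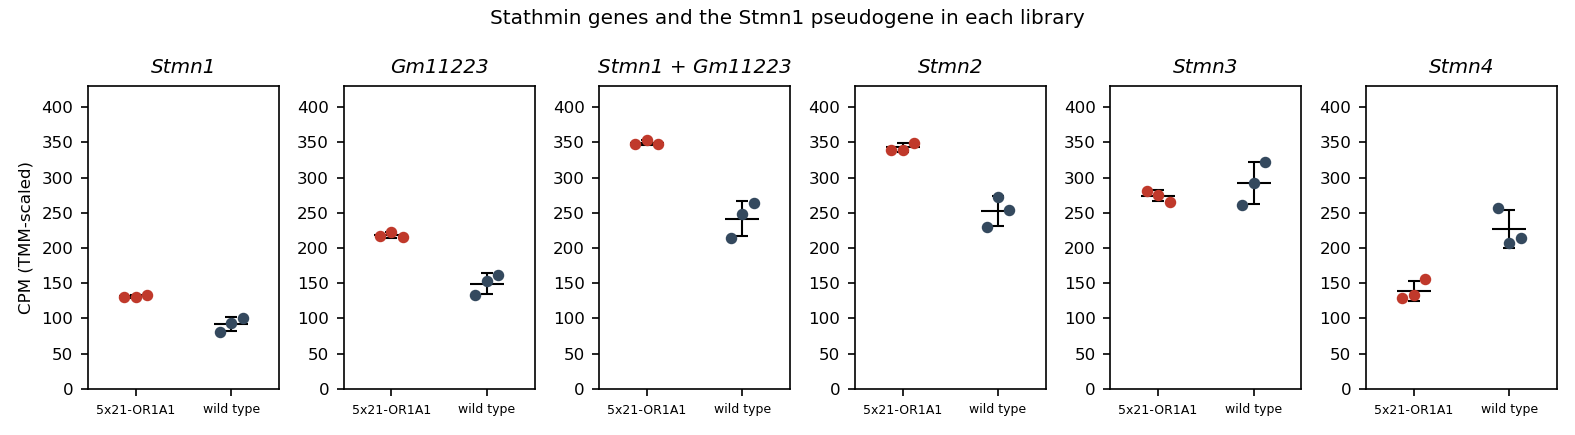
CPM (TMM-scaled) of the 4 stathmin genes, the Stmn1 pseudogene Gm11223 and the sum of Stmn1 and Gm11223, in the 3 hemizygous 5x21-OR1A1 libraries (red) and the 3 wild-type libraries (blue), with the mean and SD as bars. Stmn1, Gm11223, their sum and Stmn2 are higher in all transgenic libraries, Stmn4 is lower in all, and Stmn3 overlaps.

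Of the 3 CRMP genes among the 10, Dpysl3 (chr18:43320984-43438286, minus strand), a CRMP of growing neurites, had 255, 307 and 266 CPM in the transgenic libraries and 172, 185 and 146 CPM in the wild-type ones. All transgenic libraries were higher. Dpysl3 rose (log2 0.72, SE 0.116, adjusted p = 0.0198, edgeR), and the call was lost without transgenic library 1, 2 or 3 (adjusted p of 0.0645, 0.0821 and 0.0838). Dpysl5 (chr5:30711564-30799375, plus strand), a CRMP of developing neurons, had 110, 128 and 113 CPM in the transgenic libraries and 84.8, 93.9 and 78.4 CPM in the wild-type ones. The groups did not overlap, and the log2 fold change of 0.45 (SE 0.0952) lay just outside the threshold (adjusted p = 0.0542, edgeR), while Stmn2 at 0.0479 lay just inside. Dpysl5 passed in 7 of the 18 repeats of the test, among them the one without wild-type library 2 (adjusted p = 0.0468).

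Crmp1 (chr5:37241940-37292133, plus strand), a CRMP of the semaphorin signalling pathway, had 77.0, 84.2 and 70.1 CPM in the transgenic libraries and 61.7, 84.1 and 72.7 CPM in the wild-type ones. Its groups overlapped (log2 0.08, SE 0.122, adjusted p = 0.790, edgeR), and without wild-type library 1 the log2 fold change was -0.03. Dpysl2, the most studied CRMP and no member of the 10, also overlapped (log2 -0.06, adjusted p = 0.801, edgeR), and Dpysl4 had no counts in any library. Per kilobase of exon, the share of CRMP counts that came from Dpysl3 was 45.2 ± 0.724% in transgenic and 35.8 ± 2.88% in wild-type libraries. The Crmp1 share was 20.02 ± 1.15% in transgenic and 24.5 ± 2.49% in wild-type libraries. Dpysl2 held 16.3% in transgenic and 22.1% in wild-type libraries, and Dpysl5 18.5% in transgenic and 17.6% in wild-type libraries. None of these shares overlapped between groups. Shares within a family depend on each other, so the lower Crmp1 share was no fall in Crmp1 itself, whose CPM overlapped.

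RefSeq promoter entries were found for 5 of the 10 genes, Gng8, Dpysl5, Crmp1, Tubb3 and Marcksl1. The 250 bases before each start were searched on both strands for CCCNNGGG, the core of the sites of Ebf factors, which are expressed in olfactory neurons. Dpysl5 held it in 2 places and the others in none, while 11.8% of 32851 mouse promoter entries held it at least once and 2.2% at least 2 times. They were also searched for CANNTG, the E-box bound by basic helix-loop-helix factors, and AACAAT, the core of Sox sites. CANNTG stood once in Marcksl1, Dpysl5 and 1 of the 2 Crmp1 entries and in 66.2% of all entries, and AACAAT once in Dpysl5 and in 9.42% of all entries. The sequence before the Dpysl5 start is shown because both matches lie in it (chr5:30711444-30711563, plus strand, GRCm38.p6), with capitals on the matches.
Dpysl5 promoter: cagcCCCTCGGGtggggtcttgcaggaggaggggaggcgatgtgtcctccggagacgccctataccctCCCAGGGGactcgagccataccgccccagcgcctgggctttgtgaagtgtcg
A match of these letters is a description and not a binding site.

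Tubb3 (chr8:123411424-123422015, plus strand) had 473, 499 and 436 CPM in the transgenic libraries and 368, 519.5 and 435 CPM in the wild-type ones. The groups overlapped, with wild-type library 1 lowest and wild-type library 2 highest of all. Its log2 fold change was 0.09 (SE 0.137, adjusted p = 0.791, edgeR), and -0.03 without wild-type library 1. Per kilobase, Tubb3 made up 21.2, 21.8 and 19.7% of beta-tubulin counts in transgenic libraries, against 19.4, 21.5 and 19.1% in wild-type libraries. The difference of 0.915 percentage points was not significant (exact permutation p = 0.3, two-sided), and on raw counts with no length correction it was 0.038 points (exact permutation p = 1.0). Of the other 6 beta-tubulins tested, 0 passed in edgeR. Tubb5, an isotype of dividing and young cells, made up 22.2 ± 0.075% of beta-tubulin counts per kilobase in transgenic and 16.96 ± 0.489% in wild-type libraries, and Tubb4b 43.1 ± 0.963% in transgenic and 51.4 ± 0.851% in wild-type libraries. In CPM, Tubb5 lay wholly above without passing (log2 0.42, adjusted p = 0.0913, edgeR), and Tubb4b overlapped (log2 -0.22, adjusted p = 0.380, edgeR). Since shares depend on each other, the lower Tubb4b share does not show a fall in Tubb4b itself.

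Levels were compared between genes as CPM per kilobase of exon. In transgenic libraries they ran in the order Dpysl5 (18.6 ± 1.55), Crmp1 (20.1 ± 1.83), Dpysl3 (45.4 ± 4.56), Marcksl1 (76.4 ± 6.60), Gng8 (79.0 ± 12.4), Stmn1 (91.9 ± 1.20), Stmn4 (92.1 ± 9.60), Gap43 (129 ± 5.52), Stmn2 (165 ± 2.91) and Tubb3 (251 ± 16.9). In wild-type libraries the order was Dpysl5 (13.6 ± 1.23), Crmp1 (18.96 ± 2.91), Dpysl3 (27.6 ± 3.28), Gng8 (57.8 ± 7.74), Marcksl1 (58.2 ± 6.09), Stmn1 (64.4 ± 7.15), Gap43 (75.0 ± 9.30), Stmn2 (122 ± 10.2), Stmn4 (149.8 ± 17.8) and Tubb3 (236 ± 40.7). Neighbours whose ranges of mean ± SD overlapped were Dpysl5 and Crmp1, and each pair in the run from Marcksl1 to Stmn4, in transgenic libraries, and each pair in the run from Gng8 to Gap43 in wild-type libraries. Stmn4 stood next below Gap43 in transgenic libraries and next below Tubb3 in wild-type libraries. With the Gm11223 counts included, Stmn1 would stand at 244 CPM per kilobase in transgenic and 169 in wild-type libraries.

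The 10 genes did not all move by the same amount. Relative to each of the other 9 genes within a library, Gap43 was higher in every transgenic library than in every wild-type library for 7, with log2 differences of 0.27 against Stmn1 to 1.49 against Stmn4, the last of which could not overlap since Stmn4 lay wholly below. The exceptions were Gng8 (0.34, two-sided exact permutation p = 0.3) and Dpysl3 (0.07, p = 0.8), whose ratios overlapped. The other 7 had an exact permutation p of 0.1, the smallest possible, and 0.129 after Benjamini-Hochberg adjustment over the 9 ratios. Across the 6 libraries the log2 CPM of Gap43 had a Pearson r of 0.973 with the mean of the other 9 genes, and Stmn2, Dpysl5, Marcksl1, Stmn1 and Dpysl3 had 0.958, 0.930, 0.919, 0.908 and 0.903. Tubb3, Crmp1 and Gng8 had r of 0.560, 0.531 and 0.474, and Stmn4 had -0.960. With Omp, r was -0.834 for Gap43, 0.809 for Stmn4, -0.049 for Tubb3 and -0.020 for Crmp1. These correlations describe 6 libraries of 2 groups, so they carry the difference between groups.

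The genes outside the 10 whose log2 CPM was most like the mean of the 10, among 10843 genes with a mean of at least 10 CPM, were Eya3 (r = 0.995), Kif5c (0.993), Neurod1 (0.992), Bcl11b (0.991) and Tedc1 (0.990), over the same 6 libraries. Of these, Neurod1, a transcription factor of neuronal precursors, alone passed the test (log2 0.84, adjusted p = 0.0283, edgeR). Neurod1 did not pass without transgenic library 1, 2 or 3 (adjusted p of 0.0995, 0.122 and 0.115) or wild-type library 3 (0.0683). Kif5c, a neuronal kinesin, had a log2 fold change of 0.49 (adjusted p = 0.0542, edgeR). Eya3, Bcl11b and Tedc1 had 0.25, 0.45 and 0.39 (adjusted p of 0.144, 0.0585 and 0.0706, edgeR). The 5 r values are the highest of 10843 over 6 libraries, and are given as a description.

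The 10 genes were set beside a list of 75 others of the same families and functions (stathmins, CRMPs, tubulins, gamma subunits, the Gap43 group, microtubule-associated proteins, growth cone actin and signalling, kinesins and adhesion molecules of growing axons). Of these, 70 were tested, 2 rose (Basp1 and Cntn2), 1 fell (Gng13) and 67 did not pass, beside 2.71% of all tested genes that passed, and the median log2 fold change was 0.06. In 17 of the 70 the transgenic libraries lay wholly above, beside 11.4% of all tested genes, and in 4 wholly below, beside 12.5%. Cntn2, an adhesion molecule of growing axons, had 7.14 ± 0.595 CPM in transgenic and 3.64 ± 0.708 CPM in wild-type libraries (log2 0.97, SE 0.174, adjusted p = 0.0298, edgeR). That call was lost without any 1 library except wild-type library 2 (adjusted p of 0.0564 to 0.132). The microtubule-associated proteins had 0 of 13 past the threshold in edgeR with a median of 0.01, and the values for Dcx, a protein of migrating young neurons, and Dclk1, its relative, were 0.30 (adjusted p = 0.244) and 0.38 (adjusted p = 0.0692). The growth cone actin and signalling genes had 0 of 20 past it, with a median of 0.04.

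**Figure D4:**
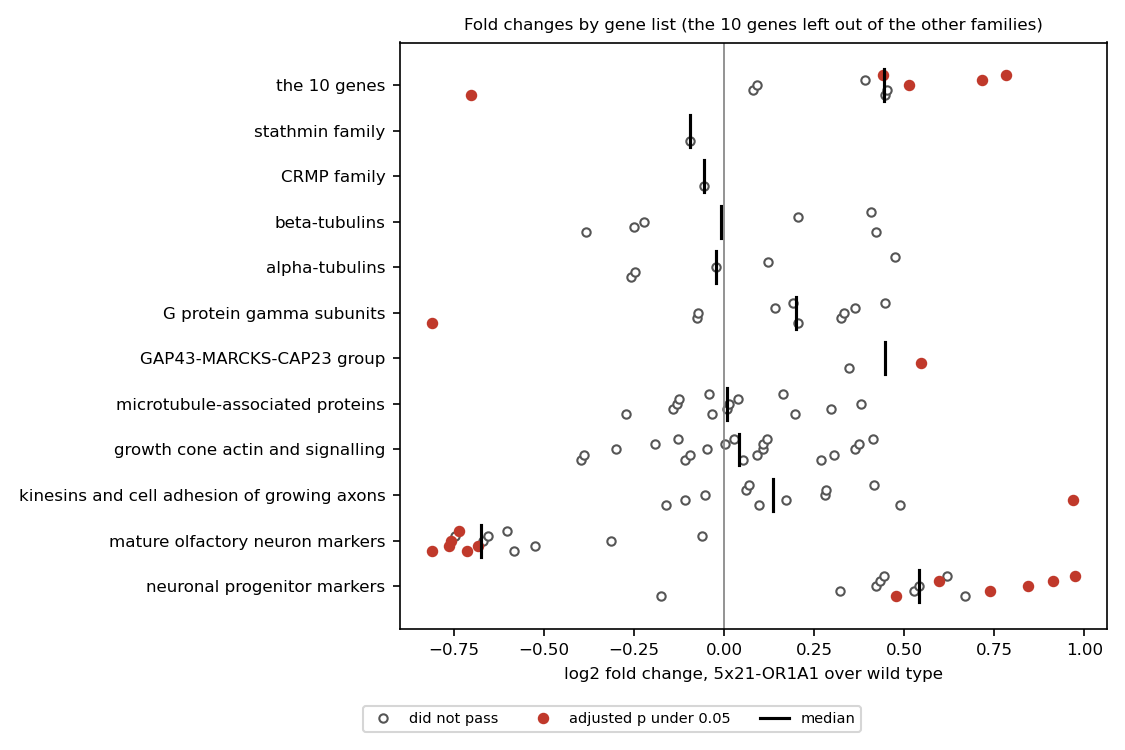
The log2 fold change of 5x21-OR1A1 over wild type for each tested gene of the lists (points, filled where the adjusted p was under 0.05), with the median as a bar; the 10 genes are left out of the family lists. The 10 genes have a median of 0.44, the related families between -0.09 and 0.45, mature neuron markers -0.68 and progenitor markers 0.54.

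Sums of mature neuron, progenitor, sustentacular and olfactory bulb and brain markers also separated the genotypes. Of the cell type lists, only the mature neuron, progenitor and bulb and brain lists held genes past the threshold. The summed level of 14 mature olfactory neuron markers was 13586 to 15024 CPM in transgenic and 19985 to 26252 CPM in wild-type libraries. Omp held 6787 of the mean of 14126 CPM in transgenic and 11518 of 23190 CPM in wild-type libraries. In edgeR 6 of the 14 were lower, beside 2.2% of all tested genes. The sum of 16 neuronal progenitor markers was 1367 to 1486 CPM in transgenic and 997 to 1182 CPM in wild-type libraries. Of these, 6 of the 15 tested were higher, beside 0.519% of all tested genes. Without transgenic library 1, 2 or 3 the mature count was 0 and the progenitor count 2, 1 and 1. Without wild-type library 1, 2 or 3 the mature count was 9, 0 and 1 and the progenitor count 4, 3 and 3. In these 6 fits 0.692% to 2.41% of all genes were lower and 0.0713% to 0.786% higher. For the 10 genes themselves the sum was 1883, 2023 and 1913 CPM in transgenic and 1497, 1724 and 1569 CPM in wild-type libraries (log2 ratio of means 0.28, and 0.39 without Stmn4). Of 9 sustentacular, 7 horizontal basal and 9 ensheathing glia markers tested, 0 passed in edgeR, and their medians were -0.13, 0.06 and -0.05. Sustentacular markers summed to 10394 to 10713 CPM in transgenic and 10740 to 13178 CPM in wild-type libraries, a narrow separation. In 2 of the 9 sustentacular markers the transgenic libraries lay wholly below, beside 12.5% of all tested genes, and in 0 wholly above, beside 11.4%. The vomeronasal marker Trpc2 had no counts in any library. Overlap of Trpc2 with other genes was not checked, so this does not show that its RNA was absent. Vomeronasal markers summed to 359 to 376 CPM in transgenic and 313 to 407 CPM in wild-type libraries. Most of that sum was Gnao1 and Gnai2 (means of 160 and 179 CPM in transgenic and 160 and 172 CPM in wild-type libraries). Vmn2r1 had 0.954, 1.34 and 3.61 CPM in transgenic libraries 1, 2 and 3, and 3.14, 0.934 and 0.173 CPM in wild-type libraries 1, 2 and 3. Tfap2e was likewise highest in transgenic library 3 and wild-type library 1, as was Gng8. Peripheral and autonomic neuron markers summed to 183 to 221 CPM in transgenic and 173 to 235 CPM in wild-type libraries. Olfactory bulb and brain markers summed to 99.5 to 113 CPM in transgenic and 116 to 146 CPM in wild-type libraries, with 2 of the 10 tested lower in edgeR, Slc1a2, a glutamate transporter (37.8 ± 6.39 CPM in transgenic and 67.7 ± 11.2 CPM in wild-type libraries, adjusted p = 0.0305), and Eomes, a transcription factor (3.34 ± 0.421 CPM in transgenic and 6.23 ± 0.791 CPM in wild-type libraries, adjusted p = 0.034). Across all tested genes 2.2% passed as lower. These 2 calls were never kept together when 1 library was left out. Without transgenic library 1, 2 or 3 the list held 0, 1 and 0 lower calls, and without wild-type library 1, 2 or 3 it held 1, 0 and 1. In those fits 0.692% to 2.41% of all genes were lower. The median log2 fold change of these 10 bulb and brain markers was -0.00049. In 2 of them the transgenic libraries lay wholly above, Gad2 (log2 0.49) and Mbp (log2 0.25), neither of which passed, beside 11.4% of all tested genes. In 2 they lay wholly below, beside 12.5%. Of the vomeronasal and of the peripheral and autonomic markers, 0 passed in edgeR. The part of these markers in the changes of the 10 genes was not tested.

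Counts were therefore also scaled to the marker sums, which put the median log2 fold change of all genes at 0.72 (mature markers) or -0.36 (progenitor markers), beside 0.02 with TMM. Scaled to mature markers, Gap43 stood at 1.5 and Tubb3 and Crmp1 at 0.81 and 0.80, so 9 of the 10 genes were called, as were 77.8% of all genes. Scaled to progenitor markers, Gap43 stayed higher at 0.42 (adjusted p = 0.00836, edgeR), while Dpysl3, Stmn1 and Stmn2 stood at 0.34, 0.15 and 0.07 and were not called. There Crmp1 was called lower at -0.28 (adjusted p = 0.0374, edgeR) and Tubb3 stood at -0.27, and 3 of the 10 genes were called, as were 39.4% of all genes. With Tubb5 left out of the progenitor markers 3 of the 10 were again called (23.8% of all genes), but not the same 3: Crmp1 was not called (-0.22, adjusted p = 0.112, edgeR) and Dpysl3 was called higher (0.41, adjusted p = 0.0371, edgeR).

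**Figure D5:**
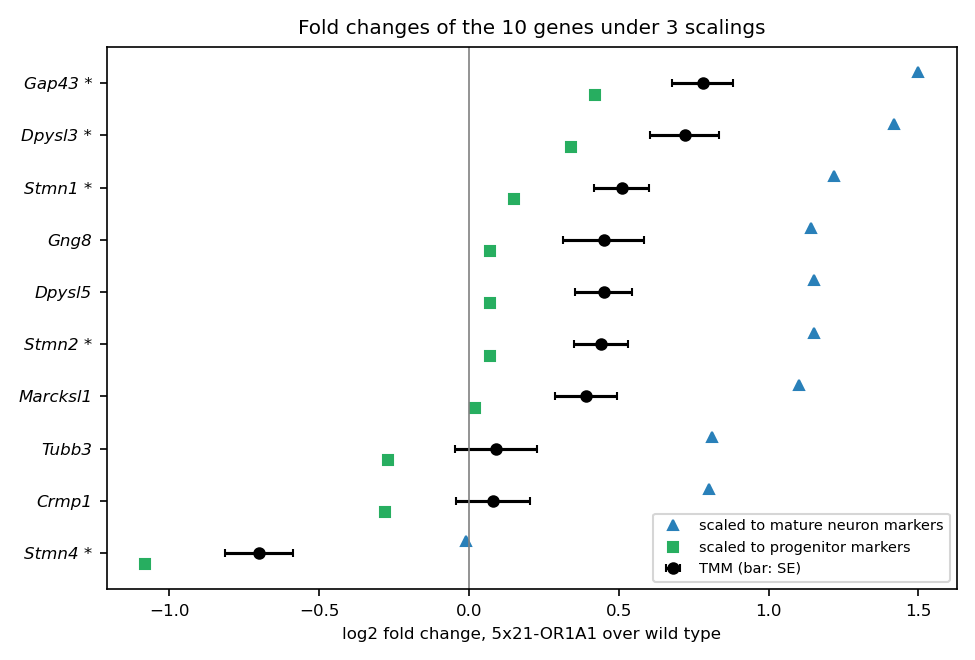
The log2 fold change of 5x21-OR1A1 over wild type of each of the 10 genes, with counts scaled by TMM (black circles, bars are SE), to mature neuron markers (blue triangles) and to progenitor markers (green squares); a star marks an adjusted p under 0.05 with TMM. Gap43 is above 0 in all 3, Crmp1 and Tubb3 change sign, and Stmn4 lies at -0.01 when scaled to mature markers.

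By Xist and Ddx3y counts, transgenic libraries 2 and 3 and wild-type library 1 were female and the other 3 male, so no genotype was of 1 sex. Within females (2 transgenic libraries, 1 wild-type) the log2 ratio was 1.03 for Gap43, 0.73 for Dpysl3, 0.71 for Stmn1, 0.58 for Stmn2 and -0.83 for Stmn4. Within males (1 transgenic library, 2 wild-type) it was 0.63 for Gap43, 0.62 for Dpysl3, 0.41 for Stmn1, 0.37 for Stmn2 and -0.71 for Stmn4. These 5 genes separated the genotypes over all 6 libraries, so they could not overlap within either sex. Each comparison within a sex had 1 library on 1 side, and no test was run. With sex in the model, Gap43, Stmn1 and Stmn4 passed, and Dpysl3 (adjusted p = 0.0537) and Stmn2 (0.0729) did not, so 3 of the 10 genes were called beside 1.5% of all genes. DESeq2 in place of edgeR called 8 of the 10, among them Dpysl5, Gng8 and Marcksl1 (adjusted p of 0.00203, 0.0341 and 0.0168), beside 6.31% of all genes. With the replicate number as a block 4 of the 10 were called, beside 1.96% of all genes, and at an adjusted p under 0.01 only Gap43 was, beside 0.799%.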

How the data were processed

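Libraries were poly-A selected, not stranded and sequenced as 100-base single reads, per the labels' protocols. The authors deposited whole-number read counts for each gene symbol, not normalised. The submitters' processing notes name TopHat2 2.1.1, HTSeq 0.9.1 and GRCm38.p5. The annotation release and counting options were not given in the sources used here. Overlapping and antisense genes cannot be separated in such data. Coordinates, coding sequences and exon lengths (the union of exons of protein-coding transcripts) are from the GENCODE M21 annotation of GRCm38, and promoters from RefSeq on GRCm38.p6.

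Counts were tested in edgeR 4.0.16 (R 4.3.3) with TMM scaling, filterByExpr by genotype (minimum count 10, minimum total 15), a quasi-likelihood test of genotype and Benjamini-Hochberg adjustment over 19267 genes, with a call at an adjusted p under 0.05. CPM are relative to TMM-scaled totals, and an SE is the log2 fold change over the square root of F. Within-library ratios were tested by exact permutation of libraries, two-sided. limma 3.58.1 (voom) and DESeq2 1.42.0 served as alternatives, beside other scalings, filters, a replicate block, a sex covariate and leaving out each library. These count fits were first tested on simulated counts with known changes. The members and gene lists were chosen with earlier results of these data known. Named genes are the 10 members, genes of each related list past the threshold (up to 4), relatives set beside a member, Omp and Gng13, and the 5 genes most like the mean of the members. Other genes, chosen after their values were seen, are Gm11223, Marcks, Dcx, Dclk1, Tubb5, Tubb4b, Trpc2, Gnao1, Gnai2, Vmn2r1, Tfap2e, Slc1a2, Eomes, Gad2 and Mbp. Replicates of a group differed by more than counting noise, so each library counted as 1.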

Additional observations from a re-analysis of the deposited data

How the results depend on the processing

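Gap43 passed in all 18 repeats of the test with another setting. Of the other called genes, Stmn2 lost its call in 13 of these, Stmn1 in 6, Dpysl3 in 6 and Stmn4 in 5. The 10 genes held 5 calls and all genes 523. Scaled to mature neuron markers, the calls were 9 of the 10 genes, 63 of the 70 related genes (3 in the report) and 14999 of all genes, and the log2 ratio of the summed 10 genes was 0.99 instead of 0.28. Scaled to progenitor markers, they were 3, 30 and 7584, and the ratio was -0.09. Without Tubb5, which makes up over 1 in every 2 of those marker counts, they were 3, 23 and 4581, and the ratio was -0.02. Crmp1 and Tubb3 then changed sign, at -0.28 and -0.27 with all progenitor markers, -0.22 and -0.21 without Tubb5, and leaving out 1 library gave -0.03 to 0.20 for Crmp1 and -0.03 to 0.23 for Tubb3, lowest without wild-type library 1. DESeq2 called 8, 9 and 1215 (6.31% of all genes), the sex covariate left 3, 1 and 289, and an adjusted p under 0.01 left 1, 0 and 154. Upper quartile scaling and a filter of 1 CPM in 3 libraries each gave 5 related genes. Marker scaling moves all genes by construction. For the other settings the cause was not tested.

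Leaving out 1 library gave 1 to 4 calls among the 10 genes, 0 to 3 among related genes, 150 to 626 among all genes and a summed ratio of 0.23 to 0.34. The lowest counts came without a transgenic library, and all genes gave 313 without wild-type library 2. The log2 difference of Gng8 to Gng13 ran from 1.10 to 1.51, that of Gap43 to Omp from 1.52 to 1.56, and the Tubb3 share difference from 0.454 to 1.67 points. Against all mature markers the first 2 were 1.16 and 1.5. Replicate numbers did not pair the libraries: deviations of same-numbered libraries correlated at -0.333, 0.072 and -0.170. With the replicate block 4 of the 10 genes and 377 of all genes were called, Stmn4 missing at an adjusted p of 0.0538 and Stmn2 at 0.0834, and Dpysl5 passing at 0.0474; the ratios differed by 1.24 and 1.54 as before. The progenitor scaling without Tubb5 and the sum of Stmn1 and Gm11223 were chosen after seeing the data. Each of the 10 genes had at least 1638 counts in every library, and no fit at matched depth was run.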
